A study of Mus musculus with 12 samples.

Results

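The whole brain transcriptomes of 6 mice given krill oil were compared with those of 6 mice given water, with stress held as a factor, to ask what krill oil did irrespective of whether the animal had been stressed. The comparison used all 12 libraries of the series, with 3 mice in each of 4 groups named C_W, C_O, MS_W and MS_O, and 21393 of the 55385 genes in the table, namely those with a mean of at least 0.1 FPKM (sequenced fragments divided by transcript length and by the mapped total of the library). All mice were wild-type (WT) C57/BL6J males bought at 8 weeks of age. C_O and MS_O mice received krill oil at 200 mg/kg per day by intragastric administration for 5 weeks, and C_W and MS_W mice received an equal volume of water by the same route. MS_W and MS_O mice were also exposed to chronic unpredicted mild stress (CUMS) for 4 weeks, while C_W and C_O mice were not. Because the control was water and not another oil, an effect of krill oil cannot be told apart from that of a daily lipid load. Each library came from 1 brain perfused with saline and carries the name of its group followed by that of the mouse, as in C_O72. The difference is given as krill oil minus water of log2(FPKM + 1) from an additive limma fit with its standard error (SE), and this scale understates the change of genes of low level.

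Krill oil is rich in the n-3 polyunsaturated fatty acids EPA and DHA, much of it bound in phospholipids, and it carries the antioxidant astaxanthin. DHA is the main n-3 fatty acid of neuronal membranes and enters the brain largely as lysophospholipid through the transporter Mfsd2a. In other tissues n-3 fatty acids are known to act on the nuclear receptors PPAR and RXR, to restrain the lipogenic factor SREBP-1, and to compete with arachidonic acid for the enzymes that make eicosanoids.

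Total estimated counts ran from 51748181 to 75678721 in the water libraries and from 50912906 to 72601163 in the krill oil libraries, so the arms overlapped in depth, with medians of 65688373 and 56852478. The mean of 10 neuronal markers lay between 6.51 and 6.88 on the log2(FPKM + 1) scale in every library. The mean of 16 hindbrain and spinal cord markers was at most 0.035 in 10 libraries, although the label is whole brain, and was 2.22 in C_O72 and 1.58 in MS_W95. These 2 libraries, 1 in each arm, resembled each other over all genes tested (r = 0.970) and not the other 10 (r at most 0.937, against at least 0.959 among those 10). Values without them are given where a gene lost an unadjusted p under 0.05 when they were left out, and for some other genes. A gene without such a value may also have moved.

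No gene passed an adjusted p of 0.05 for krill oil against water by limma with the Benjamini-Hochberg method, and the smallest adjusted p over the 21393 genes was 0.9999. Unadjusted p was under 0.05 for 623 genes (2.91% of those tested, where evenly spread p-values would give 5%), 245 of them higher (1.15%) and 378 lower (1.77%) with krill oil. That division depended on the scaling, since 402 were higher and 221 lower after each library was centred on its median, and 305 were higher and 305 lower after quantile normalization. By the other tools, edgeR's quasi-likelihood test on the estimated counts of 22169 genes called 0 at an adjusted p of 0.05 (490 at an unadjusted p of 0.05). DESeq2, run on 35077 genes, called 10 (792). The 10 were Lgals3bp, Zdhhc24, Mapkapk5, Hrh1, mt-Ts2 and Gm10233, which were higher, and Rabep1, Tnpo1, Ndufaf4 and Gm18726, which were lower. Stress, tested in the same additive fit, had an unadjusted p under 0.05 for 2553 genes (11.9%) and also none past the adjusted threshold. Where the mean FPKM was 1 or more (13621 genes), the median half-width of the 95% interval of the krill oil difference was 0.279, and for 12670 of them (93.0%) the whole interval lay between -1 and 1 on the log2(FPKM + 1) scale, which at low levels still allows more than a 2-fold change of FPKM.

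Only 19 of the 21393 genes (0.0888%) kept the 6 krill oil libraries apart from the 6 water libraries with no overlap, 5 of them higher (0.0234%) and 14 lower (0.0654%), and 12 of the 19 were protein coding. Here too the division depended on the scaling, with 19 higher and 6 lower of 25 such genes after each library was centred on its median, and 11 higher and 13 lower of 24 after quantile normalization. The genes described next had the smallest p-values among genes of 1 FPKM or more. None of their differences passed the adjusted threshold of the additive fit, so their values are descriptions of these 12 brains. Beside the limma p, an exact two-sided permutation test exchanged arms within each stress state, and its smallest possible p was 0.005 over 400 arrangements. For a gene whose arms do not overlap, this test gives 0.005 by construction, so it only restates the separation. As these genes were picked by their limma p, neither p is separate support for a krill oil effect.

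The gene with the smallest p was Lgals3bp (ENSMUSG00000033880, chromosome 11, 118392751 to 118402092 of mm10, minus strand), which encodes a secreted glycoprotein that binds galectins and is inducible by interferon. Its FPKM was 6.38, 4.44 and 6.54 in C_O15, C_O30 and C_O72 and 5.89, 7.27 and 9.03 in MS_O13, MS_O46 and MS_O78. In the water mice it was 3.62, 2.46 and 2.55 in C_W1, C_W64 and C_W70 and 3.98, 3.99 and 4.28 in MS_W31, MS_W75 and MS_W95. Every krill oil library was above every water library, and the mean was 1.89-fold higher. On the log2 scale the difference was 0.76 (SE 0.121; limma p = 5.65e-05; exact permutation p = 0.005, n = 6 per arm), and it was 0.80 (SE 0.18) without stress and 0.71 (SE 0.18) with it. Without C_O72 and MS_W95 it was 0.73 (SE 0.134).

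Zdhhc24 (ENSMUSG00000006463, chromosome 19, 4878668 to 4885397) belongs to the DHHC family, whose members attach palmitate, a saturated fatty acid, to proteins. Its FPKM was lowest at 4.64, had a median of 5.41 and was highest at 5.69 in the krill oil mice, against 2.17, 2.37 and 4.33 in the water mice. The arms did not overlap, although C_W64 (3.43) and MS_W31 (4.33) stood between the other 4 water mice and the krill oil mice. Zdhhc24 differed by 0.75 on the log2 scale (SE 0.135; limma p = 0.000154; exact permutation p = 0.005, n = 6 per arm). Gpr146, a G protein-coupled receptor linked to plasma cholesterol in mice, was another gene without overlap and is named after its values were seen. Its FPKM ran from 3.15 to 4.31 with krill oil and from 1.58 to 3.13 with water, so the nearest mice of the arms were almost level, and the log2 difference was 0.31 (SE 0.108), or 0.17 (SE 0.0645) without C_O72 and MS_W95.

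Mapkapk5 (ENSMUSG00000029454, chromosome 5, 121525038 to 121545905), a protein kinase downstream of MAP kinases, had an FPKM of 5.08, 6.44 and 8.36 (lowest, median and highest) with krill oil and of 2.05, 2.57 and 5.51 with water. The water value of 5.51 came from C_W70, and the other 5 water mice lay below 3. The log2 difference was 0.98 (SE 0.183; limma p = 0.000207; exact permutation p = 0.01, n = 6 per arm). Adam1a, a metalloprotease gene whose exons overlap those of Mapkapk5 on the same strand, ran the opposite way. Its FPKM had a median of 1.40 with krill oil and 3.48 with water, and its lowest water value, 0.871, was also that of C_W70. Fragments from such shared sequence cannot be assigned with certainty to either gene, so both values are uncertain.

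Rabep1 and Hook1, which were lower with krill oil, both act in vesicle traffic. Rabep1 (ENSMUSG00000020817, chromosome 11, 70844778 to 70943105) encodes rabaptin-5, an effector of Rab5 on early endosomes. Its FPKM was 6.45, 7.13 and 8.49 (lowest, median and highest) with krill oil and 8.95, 9.94 and 12.05 with water, again without overlap. This gave a log2 difference of -0.44 (SE 0.0886; limma p = 0.000402; exact permutation p = 0.005, n = 6 per arm), and -0.38 without stress and -0.50 with stress. Hook1 (ENSMUSG00000028572, chromosome 4, 95967240 to 96025413), an adaptor that links cargo to microtubule motors, had an FPKM of 2.14, 2.96 and 4.93 with krill oil and of 5.09, 5.29 and 6.503 with water. The unstressed C_O15 and C_O30 (4.93 and 4.38) came close to the water mice, and the difference was -0.64 (SE 0.15; limma p = 0.00118; exact permutation p = 0.005, n = 6 per arm). Exons of other genes lie antisense to those of Rabep1 (Nup88), Hook1 and, among genes described further on, Smim27 (Ndufb6 and Topors), Nek7, Gas7 (Glp2r), Fdft1 (Ctsb), Ltc4s, Cxcl10 (Art3), Doc2b, Plekha2 and Sgpp2 (Farsb). Whether strand was used in counting is not given in the sources used here, so these values may hold fragments of the partner.

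Cipc (ENSMUSG00000034157, chromosome 12, 86947043 to 86965362), which encodes a repressor of the circadian activator CLOCK, had the largest log2 difference among the genes without overlap. Its FPKM was 6.69, 7.01 and 6.99 in the C_O mice and 1.93, 6.28 and 6.12 in the MS_O mice. In the water mice it was 20.5, 11.7 and 21.4 in C_W and 21.99, 7.56 and 7.55 in MS_W. The krill oil mice other than MS_O13 were thus close together, while the water mice spread over a wide range whose lowest members, MS_W75 and MS_W95, were only just above the highest krill oil mouse. Its log2 difference was -1.18 (SE 0.296; limma p = 0.00196; exact permutation p = 0.005, n = 6 per arm), and -1.31 (SE 0.342) without C_O72 and MS_W95. The difference was -1.21 without stress and -1.16 with it.

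**Figure D1:**
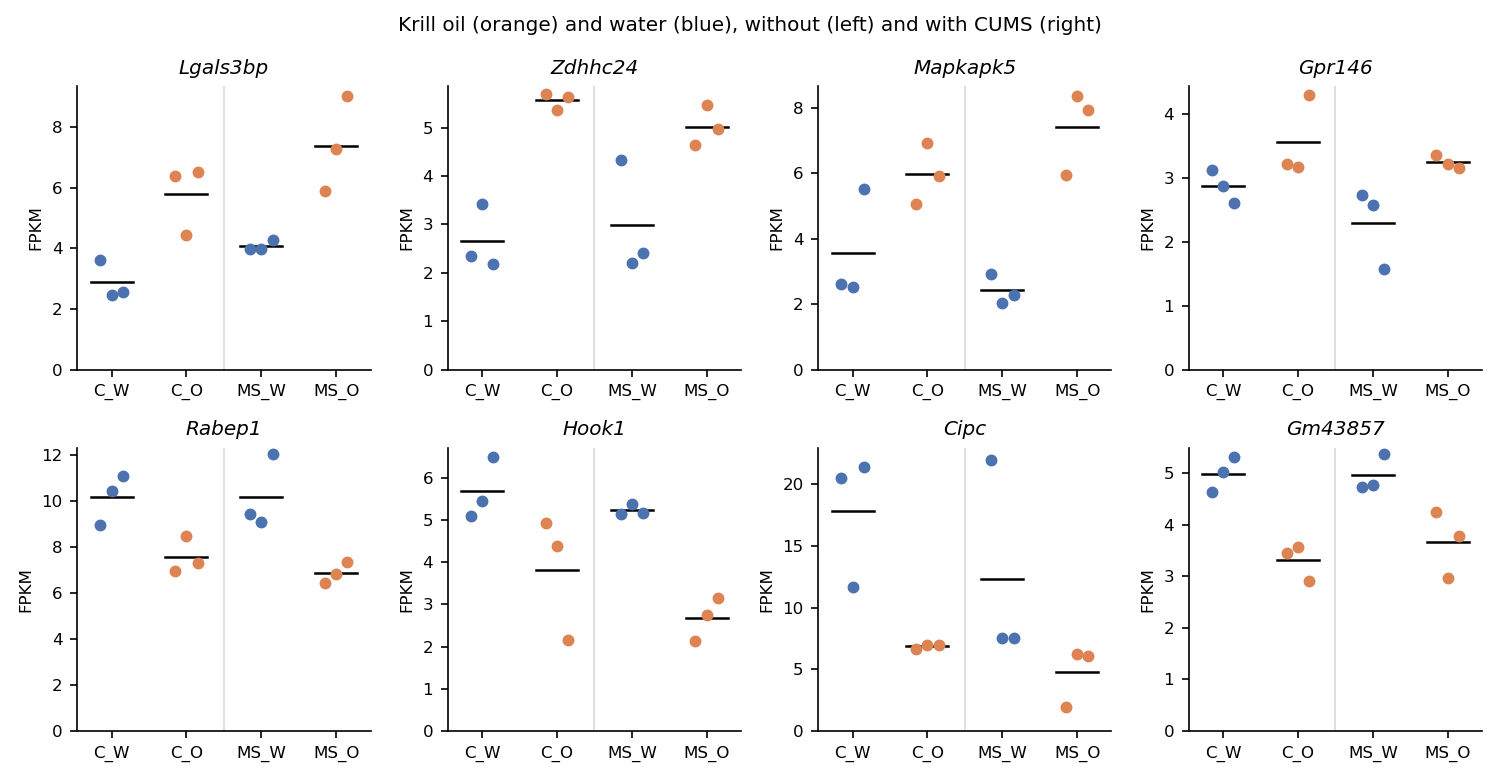
FPKM (linear axis from 0) of 8 genes in each of the 12 mice, water in blue and krill oil in orange, with group means as bars and n = 3 mice per group. In Lgals3bp, Zdhhc24 and Gpr146 every orange point is above every blue point over the 4 groups, in Rabep1, Hook1, Cipc and Gm43857 every orange point is below, and in Mapkapk5 the single water mouse C_W70 (5.51) overlaps the krill oil mice.

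The promoters of Lgals3bp, which had the smallest p, and of Cipc, which had the largest difference among the genes without overlap, are shown because the arms separated for both. Each is the RefSeq window (GRCm38.p6) from 250 bases before to 50 bases after a start site. Of 38 genes described, 20 had such a window, 36 windows in all. They were searched on both strands for the E-box CACGTG, the site of CLOCK with its partner BMAL1, for the sterol response element TCACNCCAC, and for the direct repeat that PPAR with RXR can bind (AGGTCA, 1 base of any kind, AGGTCA), motifs chosen after the values were known. Capitals mark a match.

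Lgals3bp, chr11:118401910-118402209, minus strand: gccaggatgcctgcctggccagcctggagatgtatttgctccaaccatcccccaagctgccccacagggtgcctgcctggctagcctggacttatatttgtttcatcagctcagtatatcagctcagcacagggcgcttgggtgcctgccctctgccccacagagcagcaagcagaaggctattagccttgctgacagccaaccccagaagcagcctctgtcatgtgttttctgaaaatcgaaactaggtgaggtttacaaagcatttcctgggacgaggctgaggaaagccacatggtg

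Cipc, chr12:86947093-86947392, plus strand: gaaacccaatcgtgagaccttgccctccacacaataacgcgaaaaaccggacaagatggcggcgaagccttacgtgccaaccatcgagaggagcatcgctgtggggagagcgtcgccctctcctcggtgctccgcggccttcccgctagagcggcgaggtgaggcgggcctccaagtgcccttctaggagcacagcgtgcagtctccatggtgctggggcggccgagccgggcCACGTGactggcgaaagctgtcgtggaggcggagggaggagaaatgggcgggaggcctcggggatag

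The Cipc window held the E-box at bases 234 to 239, and the second Cipc window and that of Lgals3bp held none of the motifs. An E-box was in 4 of the 36 windows (11.1%), those of Cipc, Ak4, Sgpp2 and Smim27, against 7.15% of all 32851 windows. The sterol response element was in 0 of the 36 (1.24% of all windows) and the direct repeat in 0 (0.0396% of all windows). A match is only a match of letters, and no binding was measured here.

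Smim27, for a small membrane protein, was higher with krill oil (FPKM 1.03 to 1.62 against 0.269 to 1.06; log2 difference 0.41, SE 0.0947), and so was Pars2, the mitochondrial prolyl-tRNA synthetase (1.23 to 2.51 against 0.497 to 1.54; 0.57, SE 0.148). Zfp638, a nucleic acid-binding zinc finger protein, was lower (1.24 to 2.41 against 2.21 to 2.78; -0.35, SE 0.0862). Gm43857, an unconfirmed transcript antisense to exons of Usp33, was lower in every krill oil mouse (2.92 to 4.25 against 4.62 to 5.37; -0.42, SE 0.0865). Cluap1, a protein of cilia, G2e3, a ubiquitin ligase, and Pias1, a SUMO ligase, were also lower without overlap, and are named after their values were seen. Their differences were small, as the -0.15 (SE 0.061) of Cluap1 and the -0.22 (SE 0.071) of G2e3.

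In several genes the mice fell at 2 separate levels, and the division of the mice differed from gene to gene. Tnpo1, a nuclear import receptor, had an FPKM of 0.506 to 1.10 in the krill oil mice and of 5.24, 6.30, 5.97 and 7.21 in C_W1, MS_W31, MS_W75 and MS_W95. The remaining water mice C_W64 (0.505) and C_W70 (0.847) were at the krill oil level, and the exact permutation p was 0.035 (n = 6 per arm). Nek7, a kinase needed for the NLRP3 inflammasome, was at 0.874 to 1.56 in the C_O mice and MS_O13 and at 4.53 to 6.58 in all water mice, but MS_O46 and MS_O78 were at 5.06 and 5.37. Its log2 difference was -1.10 (SE 0.307; limma p = 0.00414; exact permutation p = 0.035, n = 6 per arm). Gas7, known for a role in neurite outgrowth, was at 6.06 to 10.5 in 5 krill oil mice and in C_W1 (8.24), and at 20.8 to 36.7 in C_O15 and the other 5 water mice (exact permutation p = 0.06, n = 6 per arm). Its log2 difference was -1.19 over all mice, and -0.997 (SE 0.541) without C_O72 and MS_W95, when its unadjusted limma p was no longer under 0.05. Hrh1, the histamine H1 receptor, was at 1.08 to 3.13 in the C_O mice and MS_O46, and at 0.0397 to 0.229 in MS_O13, MS_O78 and every water mouse. Gm10233, a pseudogene whose fragments may come from a near-identical copy, was at 5.52 to 10.9 in C_O72 and the MS_O mice and at 0.387 to 1.602 in the other 8.

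The study called DEGs at an unadjusted p under 0.05 and a ratio of mean FPKM above 2-fold in either direction. It applied them with Ballgown to pairs of groups, so its test and mice differ from those used here. With the same thresholds and p of the additive limma fit, 6 mice against 6 gave 167 DEGs (0.781% of genes tested). Of these, 85 were higher (0.397%) and 82 lower (0.383%) with krill oil. After each library was centred on its median 134 were higher and 53 lower, and after quantile normalization 96 and 74. Of the 167, 142 (85.0%) had a mean FPKM below 1, and 58 (34.7%) were protein coding, against 71.0% of the genes tested. Only 11 genes were past the 2-fold limit when the limma difference of log2(FPKM + 1) was used for the size. The most abundant DEGs were Gas7, Gm21887 and Cipc among those lower and Gm24497, Gm23472 and mt-Ts2 among those higher. Gm21887, on chromosome X, had an FPKM of 3.17 to 14.4 with krill oil and 10.5 to 23.0 with water. Its arms overlapped, as did those of Mid1-ps1, a pseudogene of chromosome Y (0.803 to 2.86 against 2.32 to 4.45). The transfer RNA gene mt-Ts2 showed 14.7, 23.8 and 24.3 in MS_O78, MS_O46 and C_O15 and only 0.224 to 0.439 in the other 9 mice, so its 31.6-fold ratio of means rested on 3 of 6 krill oil mice. Gm23472 (1.94 to 16.5 against 0.957 to 5.83) and Gm24497 (3.09 to 11.6 against 1.09 to 9.59) also overlapped between the arms. Without C_O72 and MS_W95 the log2 difference went from 0.98 to 1.42 for Gm24497 and from 2.02 to 2.38 for mt-Ts2. That of Gm21887 went from -0.96 to -0.71.

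The additive fit averages over stress, and C_O against C_W and MS_O against MS_W share no mice, so the states can be set beside each other. Krill oil had an unadjusted p under 0.05 for 760 genes without stress (3.55%) and for 1303 with stress (6.09%). After the Benjamini-Hochberg adjustment of limma, 0 and 1 gene (0.00467%) passed, the latter being Mapt. Of the 21393 genes tested, 98 had an unadjusted p under 0.05 in both states, 20 with the same sign in each and 78 with opposite signs. Over all genes tested, the difference had the same sign in both states for 8182 (38.2%), and across genes, which are not independent replicates, the correlation of the differences was r = -0.438. That value depended on the libraries with hindbrain signal, because it was -0.0633 without C_O72, -0.145 without MS_W95 and -0.144 without both. Without both libraries, 177 of the 21393 genes had an unadjusted p under 0.05 in each state, 47 with the same and 130 with opposite signs. The test of the difference between states, the interaction of krill oil and stress, had an unadjusted p under 0.05 for 1546 genes (7.23%), and the smallest adjusted p was 0.106 by limma.

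Of the 20 genes that went the same way in both states, those of 1 FPKM or more with the smallest p were Lgals3bp, Zdhhc24 and Mapkapk5 among the higher and Rabep1, Gm43857, Hook1, Zfp638 and Cipc among the lower. Among those that crossed over was Scd2 (chromosome 19, 44293674 to 44306864), the main stearoyl-CoA desaturase of the brain, which introduces the double bond of oleate. Its FPKM was 244, 230 and 468 in C_O and 269, 42.6 and 47.4 in C_W, but 42.6, 59.4 and 49.5 in MS_O and 296, 298 and 69.1 in MS_W. The log2 difference was 1.85 (SE 0.721) without stress and -1.85 (SE 0.721) with stress, which left 0.00 (SE 0.734) over both (-0.51, SE 0.802, without C_O72 and MS_W95), and the interaction had an unadjusted p of 0.00436 and an adjusted p of 0.631 by limma. Scd2 is named after its values were seen, and C_W1 and MS_W95 stood at the level opposite to the other mice of their groups.

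**Figure D2:**
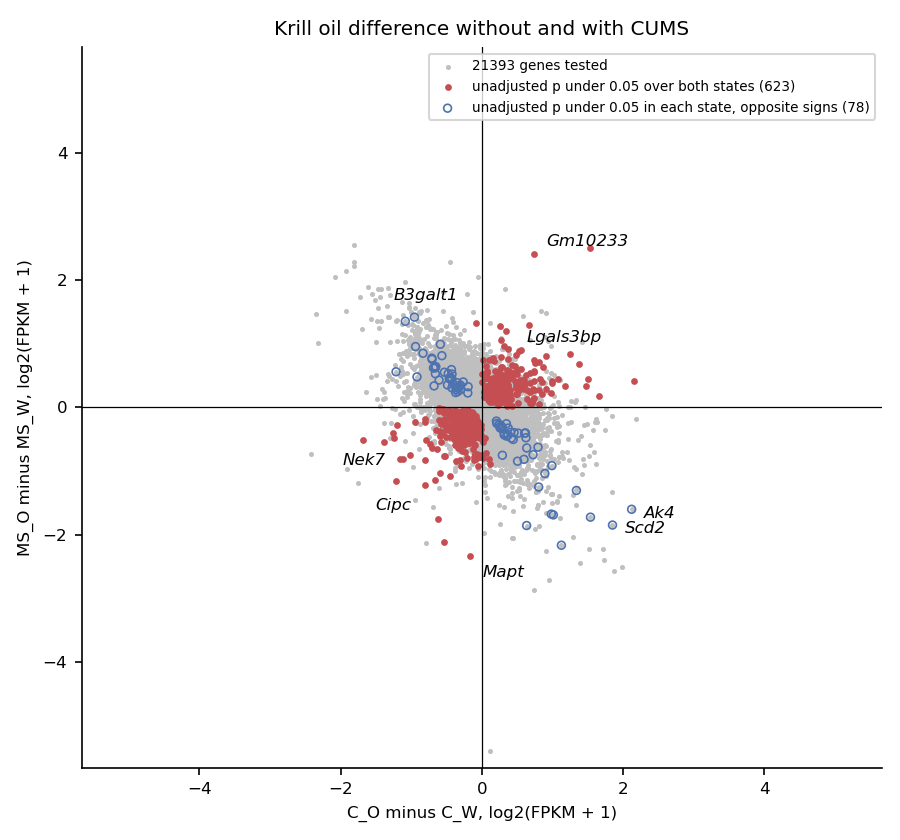
Krill oil difference of log2(FPKM + 1) without stress (C_O minus C_W, x axis) and with stress (MS_O minus MS_W, y axis) for each of the 21393 genes tested, from 3 mice per group. The 623 genes in red have an unadjusted p under 0.05 over both states and lie mostly where both differences have 1 sign, while the 78 circled in blue have an unadjusted p under 0.05 in each state with opposite signs.

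Other genes described for their unequal differences included Mapt, for the microtubule protein tau, with an FPKM of 10.4 to 11.8 in the MS_O mice and of 52.4 to 96.7 in all others. Its log2 difference was -0.17 (SE 0.18) without stress and -2.33 (SE 0.18) with it, and the additive value, -1.25 (SE 0.342; exact permutation p = 0.035, n = 6 per arm), is the mean of both. Doc2b, a calcium sensor of vesicle release, was at 3.91 to 7.72 with krill oil in either state, while the water mice were at 2.24 to 3.54 without and 16.4 to 19.9 with stress. Ngb, the neuronal oxygen-binding neuroglobin, had a difference of 0.42 without and -2.05 with stress. Ak4, a mitochondrial adenylate kinase, had one of 2.12 and -1.60. B3galt1, a galactosyltransferase of glycan synthesis, had one of -0.96 and 1.42. Adjusted p of the interaction lay between 0.106 and 0.345 for these 5 genes by limma. Of the genes on glycans, phosphoinositides and sphingosine phosphate that the study discussed, Gcnt1 (0.15, SE 0.34), Plekha2 (0.24, SE 0.405) and Sgpp2 (-0.15, SE 0.477) had additive differences below their SE and opposite signs in the 2 states. The study named these genes and B3galt1 from its comparison of MS_W with MS_O, which held stressed mice only. There Gcnt1 had an FPKM of 0.903, 4.74 and 4.53 in MS_O and 1.74, 0.992 and 0.971 in MS_W. Plekha2 had 6.42, 18.6 and 15.7 against 7.96, 6.69 and 2.34, and Sgpp2 had 5.65, 3.78 and 3.26 against 4.61, 5.79 and 25.1. That 25.1 was the value of MS_W95. Sgpp2 was also at 27.1 in C_O72, the other library with hindbrain signal, and at 3.26 to 9.35 in the rest.

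**Figure D3:**
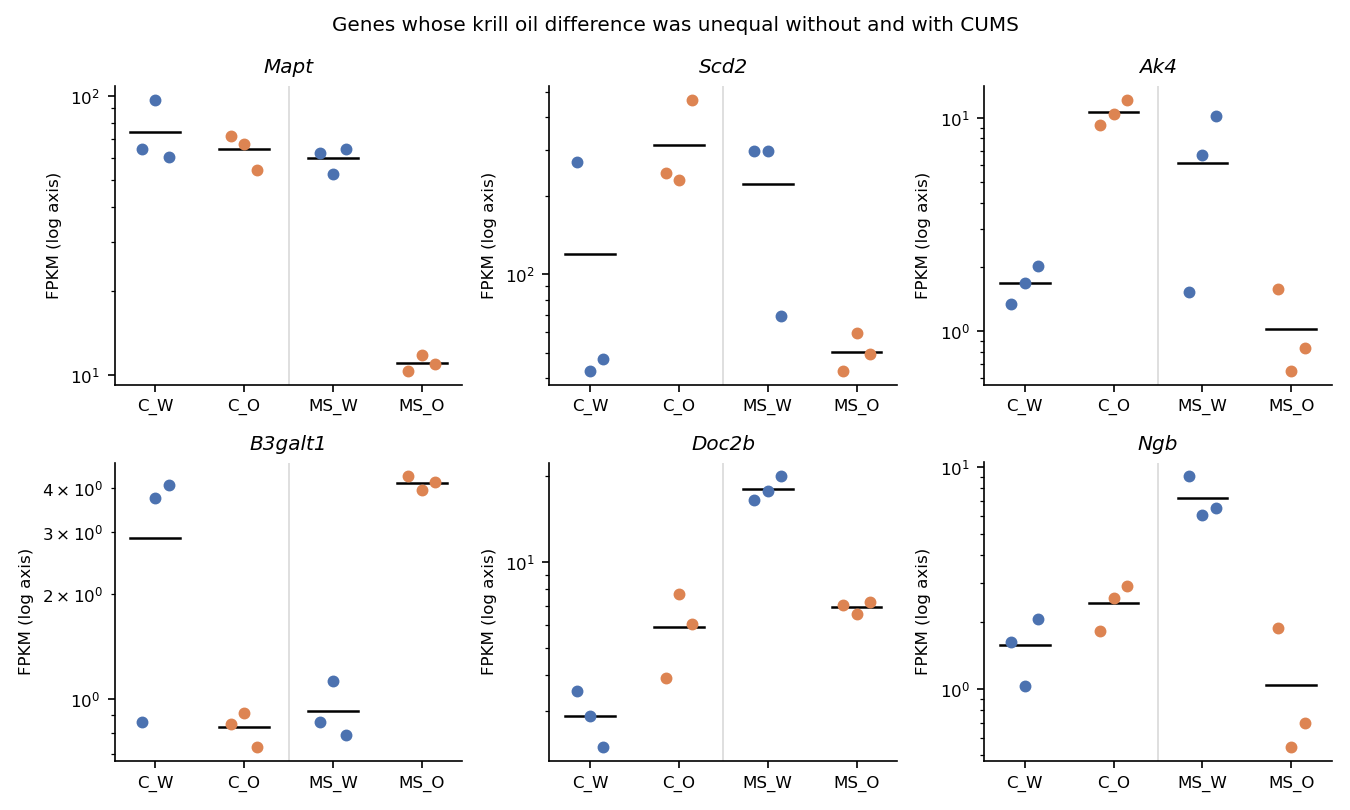
FPKM on a log axis of 6 genes in each of the 12 mice, water in blue and krill oil in orange, with means of 3 mice as bars. Mapt is low only in MS_O (10.4 to 11.8), and Scd2 and Ak4 are high in C_O and low in MS_O, while B3galt1 is low in C_O and high in MS_O.

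For lipid metabolism, antioxidant defence and inflammation, 10 lists written from general knowledge held 217 tested genes. Unadjusted p was under 0.05 for 3 higher and 1 lower of them (1.84%, against 2.91% of all genes tested), and none passed the adjusted threshold. The list medians lay between -0.02 and 0.04, against -0.01 for all genes tested, and the 95% interval lay between -1 and 1 on the log2(FPKM + 1) scale for 207 of the 217 genes. These values average over stress, and the list means had opposite signs in the 2 states except for the eicosanoid and inflammatory lists. Without and with stress they differed by 0.29 and -0.31 for desaturation and elongation, 0.23 and -0.13 for fatty acid oxidation, and 0.21 and -0.13 for antioxidant defence. C_O72 and MS_W95 had the highest means of fatty acid oxidation (3.58 and 3.40).

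The desaturases and elongases that build long polyunsaturated fatty acids had point differences between -0.21 for Scd3 and 0.22 for Elovl1. The log2 difference was 0.02 (95% interval -0.15 to 0.18) for Fads1, the delta-5 desaturase, and 0.03 (-0.22 to 0.28) for Fads2, the delta-6 desaturase. For the elongases it was 0.11 (-0.41 to 0.63) for Elovl5 and -0.02 (-0.50 to 0.45) for Elovl2. Scd2 had the widest interval of the list, -1.61 to 1.61. In uptake and binding, Mfsd2a, the carrier of DHA, differed by 0.14 (-0.32 to 0.60), and the binding proteins Fabp5 and Fabp7 by 0.09 (-0.16 to 0.35) and 0.16 (-0.77 to 1.09). Acsl6, which activates DHA in neurons, differed by -0.03 (-0.30 to 0.24).

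In mitochondrial fatty acid oxidation 0 of 18 genes had an unadjusted p under 0.05 and all 18 intervals lay between -1 and 1 on that scale. Cpt1a, the entry enzyme and a known PPAR target, had the largest difference of that list, 0.18 (-0.19 to 0.56). Ppara itself differed by 0.02 (-0.15 to 0.20) and Rxra by 0.11 (-0.36 to 0.58). All 34 genes of phospholipid synthesis and remodelling, into which krill oil fatty acids enter, also had intervals between -1 and 1 and 0 of 34 had an unadjusted p under 0.05. The same count was 0 of 34 for sphingolipid metabolism, 0 of 27 for antioxidant defence and 0 of 10 for the endocannabinoid system. In antioxidant defence, Nfe2l2, the regulator NRF2, differed by 0.11 (-0.26 to 0.47), and its target Hmox1 by 0.00 (-0.26 to 0.25).

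In cholesterol synthesis and transport, 1 of 23 genes had an unadjusted p under 0.05 (4.35%, against 2.91% of all genes tested). This was Fdft1, squalene synthase, with an FPKM of 12.3, 16.8 and 19.2 (lowest, median and highest) with krill oil and 15.3, 23.3 and 25.4 with water. Fdft1 differed by -0.40 on the log2 scale (SE 0.154; limma p = 0.0242; exact permutation p = 0.045, n = 6 per arm). The difference was -0.03 (SE 0.16) without and -0.78 (SE 0.16) with stress, and the interaction had an adjusted p of 0.652 by limma. Sqle, squalene epoxidase, differed by 0.04 (-0.16 to 0.25), and the regulators Srebf1 and Srebf2 by 0.04 (-0.27 to 0.34) and -0.07 (-0.49 to 0.35).

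Eicosanoid synthesis held 2 of 22 genes with an unadjusted p under 0.05 (9.09%, against 2.91% of all genes tested), both higher. Ltc4s (ENSMUSG00000020377, chromosome 11, 50236461 to 50238616), leukotriene C4 synthase, had an FPKM of 2.41, 2.81 and 4.77 (lowest, median and highest) with krill oil and 1.39, 2.19 and 2.55 with water. Only C_O30 fell within the water range, and the log2 difference was 0.41 (SE 0.144; limma p = 0.0145; exact permutation p = 0.005, n = 6 per arm). Without C_O72, the highest mouse, and MS_W95 it was 0.29 (SE 0.124). The upstream genes of the leukotriene pathway, Alox5 and Alox5ap, differed by 0.04 (-0.08 to 0.16) and -0.10 (-0.45 to 0.24).

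Ptgds (ENSMUSG00000015090, chromosome 2, 25466709 to 25470046), the brain prostaglandin D2 synthase, was among the most abundant genes of these lists. Its FPKM was 385, 746 and 1591 in C_O15, C_O30 and C_O72 and 382, 667 and 804 in MS_O13, MS_O46 and MS_O78, against 327 to 570 in the water mice. Thus 4 of 6 krill oil mice were above every water mouse and the others were within their range. The log2 difference was 0.76 (SE 0.322; limma p = 0.0367; exact permutation p = 0.05, n = 6 per arm) and 0.43 (SE 0.252; limma p = 0.119) without C_O72 and MS_W95. Ptgds is also made in the meninges, and the mean of 10 markers of meninges and fibroblasts ran from 1.10 to 2.27 on the log2(FPKM + 1) scale with krill oil and from 0.93 to 1.58 with water. It was highest in C_O72, and differed by 0.66 without stress and -0.10 with it. All 10 markers were higher with krill oil over both states, but only 4 of the 10 had the same sign in each state. Among them 1, Slc6a13, had an unadjusted p under 0.05 (log2 difference 0.60). Without C_O72 and MS_W95 the difference of Slc6a13 was 0.38 (SE 0.259) and its p was no longer under 0.05. The part of these markers in the Ptgds difference was not tested, and in bulk tissue a larger share of a cell type and more RNA per cell cannot be told apart. The cyclooxygenase Ptgs2 differed by -0.09 (-0.66 to 0.47).

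**Figure D4:**
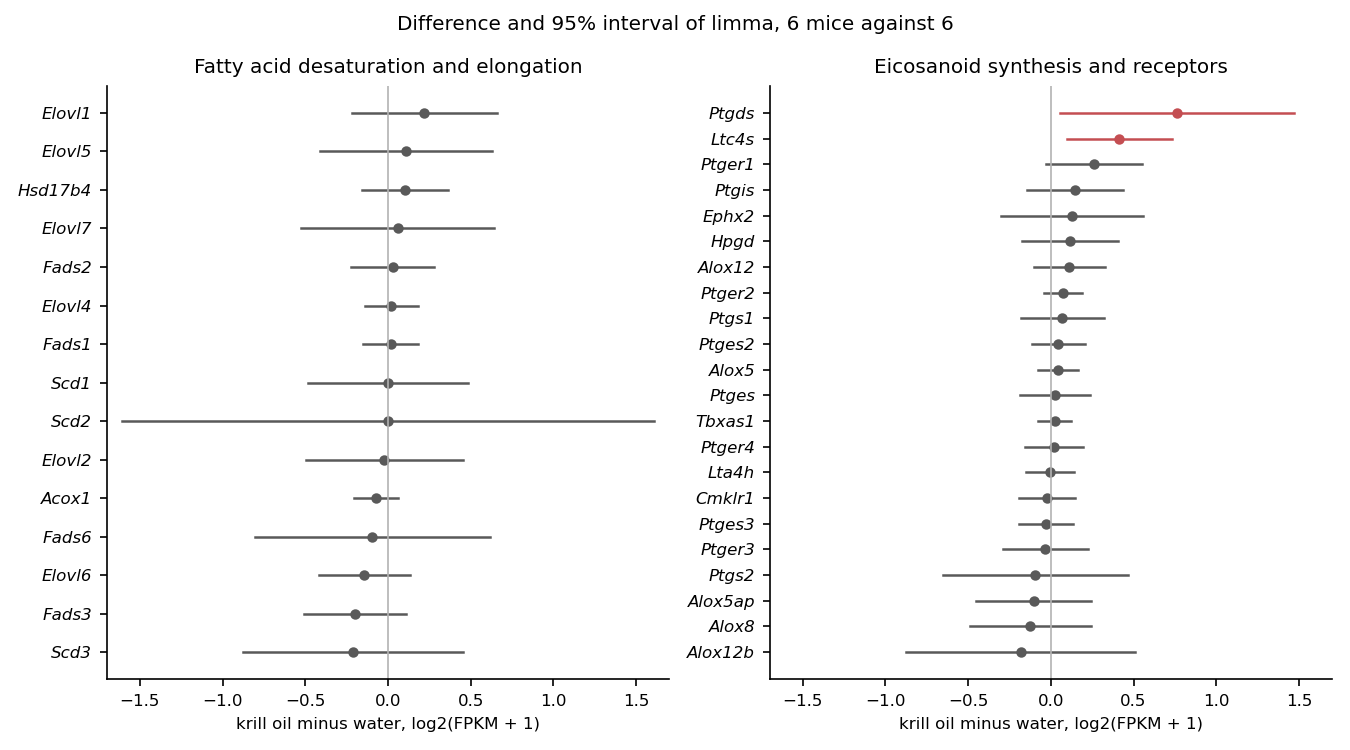
Krill oil minus water difference of log2(FPKM + 1) with its 95% interval from the additive limma fit, 6 mice against 6, for the tested genes of 2 lists. Apart from Scd2, whose interval reaches from -1.61 to 1.61, the point values of the first list lie between -0.21 and 0.22 with narrower intervals, and among the eicosanoid genes Ptgds (0.76) and Ltc4s (0.41), in red, have an unadjusted p under 0.05.

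In inflammatory signalling 1 of 15 tested genes, Cxcl10, had an unadjusted p under 0.05 (6.67%, against 2.91% of all genes tested). Cxcl10 was at the very low FPKM of 0.0211 to 0.373 with krill oil and 0.0212 to 0.08 with water. Its log2 difference was 0.14 over all mice and 0.15 (SE 0.072) without C_O72 and MS_W95, when its p was no longer under 0.05. In 4 neural lists 1 higher and 1 lower of 101 genes had an unadjusted p under 0.05 (1.98%, against 2.91% of all genes tested). Dlg2, a postsynaptic scaffold, had an FPKM of 4.16, 10.01 and 18.4 (lowest, median and highest) with krill oil and 14.2, 19.0 and 19.5 with water. Its lowest value in each arm was that of C_O72 and MS_W95, and the log2 difference was -0.74 (SE 0.265) over all mice and -0.62 (SE 0.204) without them. Bdnf, the neurotrophin most often studied in depression, differed by -0.16 (-0.55 to 0.22). The other neural gene was Hrh1.

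**Figure D5:**
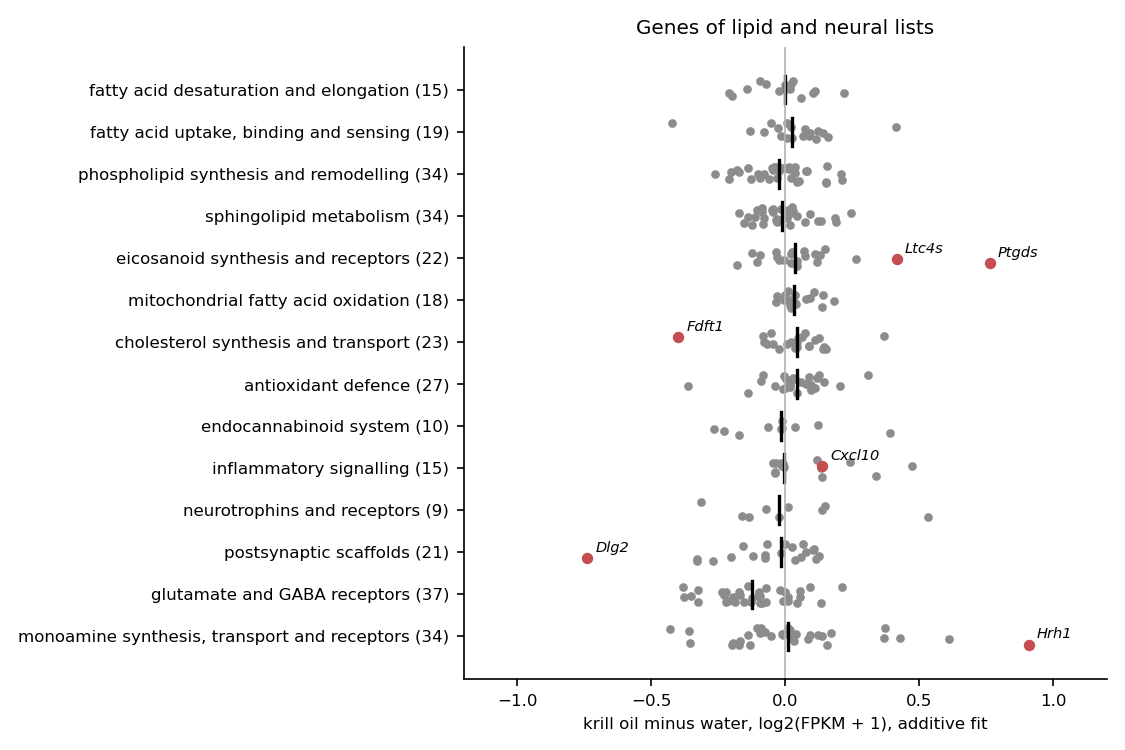
Krill oil minus water difference of log2(FPKM + 1) for each tested gene (points) of 10 lipid and inflammatory lists and 4 neural lists, with list medians as bars and the number of tested genes in parentheses, from 6 mice against 6. The 6 genes in red have an unadjusted p under 0.05, and none passed the adjusted threshold.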

How the data were processed

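Whole brain poly(A) RNA of 12 mice was sequenced. Per the labels and methods, the authors trimmed reads (cutadapt 1.9), aligned them to mm10 (HISAT2 2.0.4), assembled transcripts (StringTie 1.3.4d) and deposited FPKM made with Ballgown, with genes lacking an estimate listed at 0.0001. The deposited estimated counts are whole numbers derived from coverage and unscaled between libraries. The handling of fragments with several alignments is not given in the sources used here. All 24 value columns belong to the 12 samples.

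Values of log2(FPKM + 1) were fitted with limma 3.58.1 under R 4.3.3 (lmFit and trended eBayes) for genes averaging 0.1 FPKM or more, with krill oil and stress as additive factors, and p was adjusted over all genes tested by the Benjamini-Hochberg method. A fit of 4 group means gave the differences within each stress state and the interaction. Alternatives included edgeR 4.0.16 and DESeq2 1.42.0 on the estimated counts, other pseudocounts, filters and scalings, and leaving out libraries. The tests were tested on simulated data. Mice within a group are separate animals. Intervals are 95% intervals over mice.

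Genes and lists were chosen with earlier results of these data known. Named were genes past the adjusted threshold (none), the 8 higher and 8 lower with the smallest p and up to 4 of each without overlap of the arms (1 FPKM or more), list members with an unadjusted p under 0.05 (up to 3, or 2 for markers), the 3 with the smallest interaction p, the 3 most abundant DEGs each way, and 7 genes named in the study or earlier. Others are said to be named after their values were seen. Some list genes are not reported here and were left out of the list counts after their values were seen; 1 of them, on a neural list, was higher with an unadjusted p under 0.05. Promoters came from RefSeq (GRCm38.p6). Figures were drawn with matplotlib 3.10.9.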

Additional observations from a re-analysis of the deposited data

Results flagged for a closer look

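In 76 arms of 6 mice (38 genes), 10 had 1 mouse whose gap to the nearest other mouse exceeded 0.625 of the range of log2(FPKM + 1), Dixon's limit, and chance alone flags about 1 arm in 20. Of these, 3 were MS_W95, which had an FPKM of 25.1 for Sgpp2 (other water mice 4.61 to 6.99), 1.602 for Gm10233 (0.387 to 0.651) and 14.2 for Dlg2 (17.4 to 19.5). Sgpp2 was also high, at 27.1, in the krill oil mouse C_O72, which was not flagged for it. C_O72 was flagged at 1.16 for C1ql2, a gene of dentate granule cells (other krill oil mice 0.177 to 0.338). C_W70 had 5.51 for Mapkapk5 (other water mice 2.05 to 2.92) and 6.503 for Hook1 (5.09 to 5.45). C_O15 had 36.6 for Gas7 (other krill oil mice 6.06 to 10.5) and 3.91 for Doc2b (6.07 to 7.72). MS_O13 had 1.93 for Cipc (other krill oil mice 6.12 to 7.01), and C_W64 had 96.7 for Mapt (other water mice 52.4 to 64.4).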

How the results depend on the processing

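No gene passed an adjusted p of 0.05 under any alternative, or without any 1 library (0 in each), except 1 (Mapt, adjusted p = 0.0262) when krill oil was averaged over 4 group means in limma and 10 by DESeq2. Genes with an unadjusted p under 0.05 numbered 961 of 35074 tested with no filter and 377 of 13621 at a mean FPKM of at least 1. Among the same 21393 genes as in the main fit, 1131 passed with array weights and 1082 in an ordinary linear model with library size. With the hindbrain score as a covariate 1228 of them passed, and without 1 library 441 to 957, the highest without C_O72. DEGs numbered 470 of 35074 genes with no filter and 25 of 13621 at a mean FPKM of at least 1. By edgeR they numbered 109 (TMM) and 111 (DESeq2 size factors) of 22169, and 511 of 35077 (no filter). DESeq2 gave 329 of 35077. Among the 21393 genes of the main fit, DEGs numbered 11 by the limma difference and 150 to 248 without 1 library. Genes without overlap of the arms numbered 110 without C_O72 and MS_W95, and 32 to 78 without 1 library, as fewer mice overlap less. The interaction had 32 genes past the adjusted threshold with array weights, 153 by DESeq2, 31 without C_O72 and MS_W95 and 0 to 20 without 1 library (20 without C_O15, 10 without C_O72, 8 without MS_W95). Genes with an unadjusted p under 0.05 in both states numbered 177 of 21393 without C_O72 and MS_W95, settings chosen after seeing the data. Of 38 genes, 35 kept their sign throughout. The exceptions were Plekha2 (-0.057 to 0.457 without 1 library, lowest without MS_W95), Sgpp2 (-0.516 to 0.243, highest without MS_W95) and Gcnt1 (-0.051 to 0.302, below 0 without MS_O46 or MS_O78, and -0.028 and -0.105 with pseudocounts of 0.1 and 0.01). Other causes of these changes were not tested. No paired analysis was possible because the groups share no mouse numbers. At 6 mice against 6, the median SE at a mean FPKM of at least 1 was 0.127 and the median half-width of the 95% interval was 0.279. Differences of these sizes were not detectable, and larger ones could be missed. Even Lgals3bp, at 0.76 (SE 0.121), did not pass the adjusted threshold of the additive fit.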

Other observations

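Genes of glutamate and GABA receptors, which carry fast excitatory and inhibitory transmission, had a median log2 difference of -0.13 with krill oil, against -0.01 over all genes tested. Of 37 such genes 29 were lower and 8 higher, against 11196 lower and 10197 higher of all 21393 genes tested. None of the 37 had an unadjusted p under 0.05, and only 13 had the same sign in each state. The mean of the list ran from 2.91 to 3.55 on the log2(FPKM + 1) scale with krill oil and from 3.43 to 3.59 with water, so the arms overlapped. The difference of these means was -0.12 over all mice and -0.04 without C_O72 and MS_W95. It was -0.25 without stress and 0.01 with it.

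Markers of cell types and brain regions, 205 genes on 19 lists, had an unadjusted p under 0.05 for 1 higher (Slc6a13, a GABA transporter of the meninges, which had a limma p of 0.179 without C_O72 and MS_W95) and 1 lower (C1ql2), 0.976% against 2.91% of all genes tested. The mean of every list overlapped between the arms. All 10 markers of choroid plexus were higher with krill oil over both states, but only 1 of the 10 had the same sign in each state. Their list mean was 0.69 to 4.13 against 0.45 to 3.28 with water, and differed by 1.12 without stress and -0.32 with it. All 12 markers of cerebellum had differences of 0.00 or below, but 0 of the 12 had the same sign in each state. Their list mean differed by 0.97 without and -1.50 with stress, and by -0.04 without C_O72 and MS_W95. It was 1.83 to 5.09 with krill oil, highest in C_O72, and 1.77 to 6.49 with water, highest in MS_W95. The spread between mice of one arm was thus larger than the difference between arms in these region lists. Markers of blood, which saline perfusion should lower, had a list mean of 2.87 to 4.96 with krill oil and 2.65 to 5.31 with water. Markers of microglia and endothelium had medians of 0.06 and 0.03, and 22 of their 23 intervals lay between -1 and 1 on the log2(FPKM + 1) scale. Aldh1a2, which makes retinoic acid in the meninges and was on no list, had an FPKM of 2.28 to 11.996 with krill oil and 1.67 to 4.83 with water (log2 difference 0.76, SE 0.315, and 0.50, SE 0.25, without C_O72 and MS_W95), with its highest value in C_O72, and is named after its values were seen.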
